A study of Homo sapiens with 6 samples.

Results

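The genes described here handle proteins at the membrane of the endoplasmic reticulum (ER), the compartment in which secreted and membrane proteins are made. They are 41 genes chosen by name, of 57150 in the deposited table: 18 of ER-associated degradation and 23 of protein import into the ER. Each symbol had 1 row in the table, and all 41 had a mean of at least 1 FPKM (fragments per kilobase of transcript, scaled to the number mapped in each library) and were tested. The RNA came from H358, a human non-small-cell lung cancer line with an epithelial phenotype. One group had received lentiviral short hairpin RNAs against RBM47, an RNA-binding protein, and the other a control knockdown, and both carried lentiviral hairpins. Each group held 3 libraries of polyadenylated RNA, described as biological triplicates by the series design. The hairpins and cell pools behind them are not described in the labels.

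ER-associated degradation takes misfolded proteins out of the ER. Mannosidases and lectins mark and recognise them, a membrane complex around the ubiquitin ligase SYVN1 and its partner SEL1L passes them through the membrane and ubiquitinates them, and the ATPase VCP (p97) pulls them into the cytosol for the proteasome. Import runs the other way. The signal recognition particle brings a ribosome with its growing chain to the SRP receptor, the Sec61 channel lets the chain in with the help of the TRAP complex, and signal peptidase cuts the signal sequence off. Many genes of both machineries are targets of the unfolded protein response, through the transcription factors XBP1 and ATF6.

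The knockdown check and the identity of the cells came first. RBM47 stood at 85.2, 92.4 and 87.9 FPKM in control replicates 1 to 3 and at 12.01, 13.4 and 13.5 FPKM where it had been targeted, 14.6% of the control mean (limma, adjusted p = 2.04e-06). All 8 epithelial markers examined were expressed, with a summed level of 3362 to 3460 FPKM in the knockdown and 3988 to 4268 FPKM in the controls. Of these markers 6 fell (CDH1, KRT8, KRT18, KRT19, KRT7 and CLDN7), with log2 fold changes from -0.46 to -0.25 (limma, adjusted p from 0.00143 to 0.0193), and EPCAM and CLDN4 did not pass. Their part in the differences below was not tested. Summed markers of leukocytes and endothelium stayed at or under 1.49 FPKM in every library, and those of fibroblasts reached 15.8 FPKM, nearly all of it COL1A1. Total FPKM ran from 651951 to 673552. The number of fragments is unknown, but relative depth, read from the smallest values with RBM47 knockdown replicate 1 set to 1, reached at most 1.05 in the knockdown and lay at 1.08 to 1.16 in the controls.

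Transcripts of both machineries fell in part in the knockdown, and none of the 41 genes rose. Of the 18 degradation genes 9 fell and 9 did not pass the threshold, against 5 and 18 of the 23 import genes (limma, adjusted p under 0.05 over 14419 genes). In RNA of whole cultures, fewer cells that express a gene and less of its RNA per cell cannot be told apart. Over all tested genes 6.34% were called lower and 5.1% higher. At an unadjusted p under 0.05, 27 of the 41 were lower and none higher, against 14.3% and 14.1% of all tested genes. The median log2 fold change was -0.31 over the degradation genes, -0.13 over the import genes and 0.0061 over all tested genes, on the scale of log2(FPKM + 1). A negative sign was found for 17 of 18 and 22 of 23, against 48.8% of all tested genes, and for 16 or 17 and 17 to 20 when libraries were scaled to the same total, the same upper quartile or by quantiles. All 14 calls held under these scalings. The 3 knockdown values lay wholly below the 3 control values in 15 degradation genes and 12 import genes, against 16.8% of all tested genes, and in none of the 41 did they lie wholly above (17.3% of all tested genes, so that 34% of them did not overlap in one direction or the other). In these 27 genes an exact permutation test (two-sided, 3 libraries against 3) returned p = 0.1, which is the smallest p possible with so few libraries. Import calls fell to 3 when RBM47 knockdown replicate 2 was left out, to 3 when control replicate 2 was and to 2 when control replicate 3 was. The counts and medians of the lists are descriptions, and the difference between the lists was not tested.

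The contrast of the 2 machineries could be read in each library. The median deviation of the degradation genes from their control mean was -0.27, -0.31 and -0.41 (log2) in the 3 knockdown libraries, and that of the import genes -0.11, -0.17 and -0.14. In the control libraries the medians lay between -0.048 and 0.04 for degradation and between -0.029 and 0.022 for import. All 3 knockdown libraries thus lay below all 3 controls for both lists, with the larger distance for degradation. Summed over the lists, degradation genes held 858, 829 and 824 FPKM in the knockdown and 1181, 1089.7 and 1090.8 FPKM in the controls. Import genes held 2359, 2235 and 2223 FPKM against 2485, 2535 and 2559 FPKM. The ratio of the sums was 0.364 to 0.371 in the knockdown and 0.426 to 0.475 in the controls. HERPUD1 alone supplied 11.7 to 13.5% of the degradation sum in the knockdown and 20.1 to 22.2% in the controls.

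**Figure D1:**
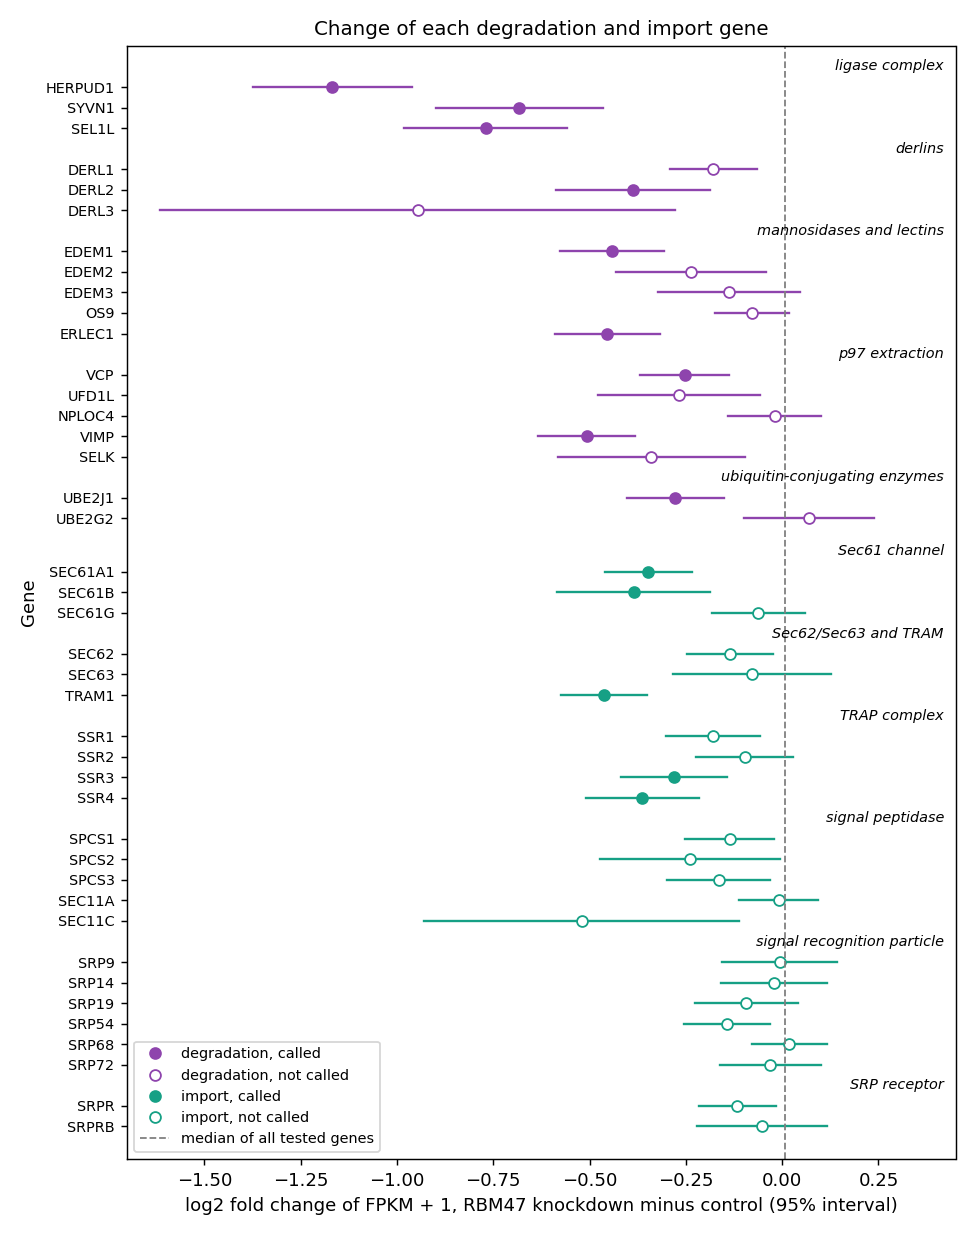
Log2 fold change of FPKM + 1 (x axis, RBM47 knockdown minus control) for each of the 41 genes (y axis), with its 95% interval from limma, grouped by step. Filled points passed the threshold, and the dashed line is the median of all tested genes. The ligase complex genes stand farthest to the left among called genes, and the points of the signal recognition particle lie near the dashed line.

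As grouped here, the membrane ligase complex (HERPUD1, SEL1L and SYVN1, with the derlins counted apart) was the step in which every gene fell. HERPUD1 encodes a membrane protein that binds SYVN1 and helps to assemble the complex (ENSG00000051108, chromosome 16, 56965960 to 56977798, hg19, a locus that the table gives to 3 genes). Its level was 262, 219.6 and 225 FPKM in control replicates 1 to 3 and 116, 100.1 and 96.7 FPKM in RBM47 knockdown replicates 1 to 3. The groups lay far apart, and the spread within each group was small beside the gap. The log2 fold change was -1.17 (SE 0.089, limma, adjusted p = 0.00107), the largest among the 14 genes that fell, and it passed in each of the 6 fits that left out 1 library. DERL3, which did not pass, stood at a lower share of its control mean (36.8% against 44.3%).

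SEL1L, the adaptor that holds the ligase and hands it substrates (chromosome 14, 81937893 to 82000205), stood at 42.5, 37.9 and 43.4 FPKM against 81.4, 66.1 and 66.5 FPKM. Its means were 41.3 ± 2.96 and 71.3 ± 8.70 FPKM (SD, n = 3 each; log2 fold change -0.77 ± 0.091 SE, limma's adjusted p = 0.00342). SYVN1, the ubiquitin ligase itself (chromosome 11, 64888100 to 64902004), stood at 29.3, 27.9 and 25.2 FPKM against 51.3, 41.6 and 41.7 FPKM, and fell by 0.68 on the log2 scale (SE 0.093, adjusted p = 0.00538). In each of these 3 genes control replicate 1 was the highest library. Without it they still passed. HERPUD1 stood at 5.11, 5.28 and 5.40 times the SYVN1 level in the controls and at 3.97, 3.58 and 3.83 times in the knockdown. The ratio of SEL1L to SYVN1 was 1.36 to 1.72 in the knockdown and 1.59 to 1.60 in the controls, with overlapping groups.

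Since HERPUD1 had the largest change among the genes that passed, the 250 bases before its RefSeq start are shown (chr16:56931892-56932141, GRCh38.p14, plus strand; the table's own loci are in hg19). Capitals mark the 2 stretches that matched a stress-related motif exactly. Near matches were neither marked nor counted.
HERPUD1 promoter: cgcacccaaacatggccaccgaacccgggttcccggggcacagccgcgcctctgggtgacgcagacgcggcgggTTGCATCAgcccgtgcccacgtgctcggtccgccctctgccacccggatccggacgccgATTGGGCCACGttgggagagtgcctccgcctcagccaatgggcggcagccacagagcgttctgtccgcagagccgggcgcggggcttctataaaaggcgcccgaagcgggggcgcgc
The first stretch, 176 bases before the start, is the reverse complement of the amino acid response core TGATGNAA, to which ATF4 binds with partners. The second, 117 bases before the start, is the second form of the ER stress response element (ERSE-II), which is known to be bound by ATF6 and XBP1 with the factor NF-Y. The sequence also holds, unmarked, a stretch that differs from the full element (ERSE) in its last letter only. Of 14880 promoter windows of tested genes (250 bases before to 50 after a RefSeq start), 14 held ERSE-II on either strand (0.0941%) and 292 held TGATGNAA (1.96%). Among the 35 of 41 genes with a RefSeq window, HERPUD1 was the one with the former. The latter was also found in SRPRB, whose RNA did not pass the threshold.

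The derlins are membrane proteins that help substrates across, and in each of the 3 the knockdown libraries lay wholly below the controls. DERL2 (chromosome 17, 5374571 to 5394134) stood at 41.4, 43.1 and 36.9 FPKM in the knockdown and at 58.2, 47.6 and 54.2 FPKM in the controls, and fell (log2 fold change -0.39 ± 0.086 SE, limma's adjusted p = 0.0279). That call was lost in 5 of 6 fits that left out 1 library (adjusted p = 0.0625 without RBM47 knockdown replicate 1, 0.0541 without RBM47 knockdown replicate 2, 0.0655 without RBM47 knockdown replicate 3, 0.0813 without control replicate 1 or 0.0908 without control replicate 3). DERL1 stood at 48.1, 48.8 and 49.1 FPKM against 58.2, 54.1 and 53.4 FPKM and did not pass (-0.18, adjusted p = 0.0541). DERL3, the derlin typical of secretory tissues, was the least abundant of the 41 genes, at 1.89, 1.46 and 0.903 FPKM against 6.02, 2.16 and 3.36 FPKM. Its spread was wide in both groups, and its log2 fold change of -0.95 had a 95% interval of -1.62 to -0.28 (limma, adjusted p = 0.0758). It passed in 1 of the 6 fits without 1 library (adjusted p = 0.0456 without control replicate 2). On the FPKM scale, which is per transcript length, DERL1 and DERL2 stood at 55.3 ± 2.59 and 53.3 ± 5.37 FPKM in control cells, which did not differ beyond their spread (SD, n = 3 each).

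**Figure D2:**
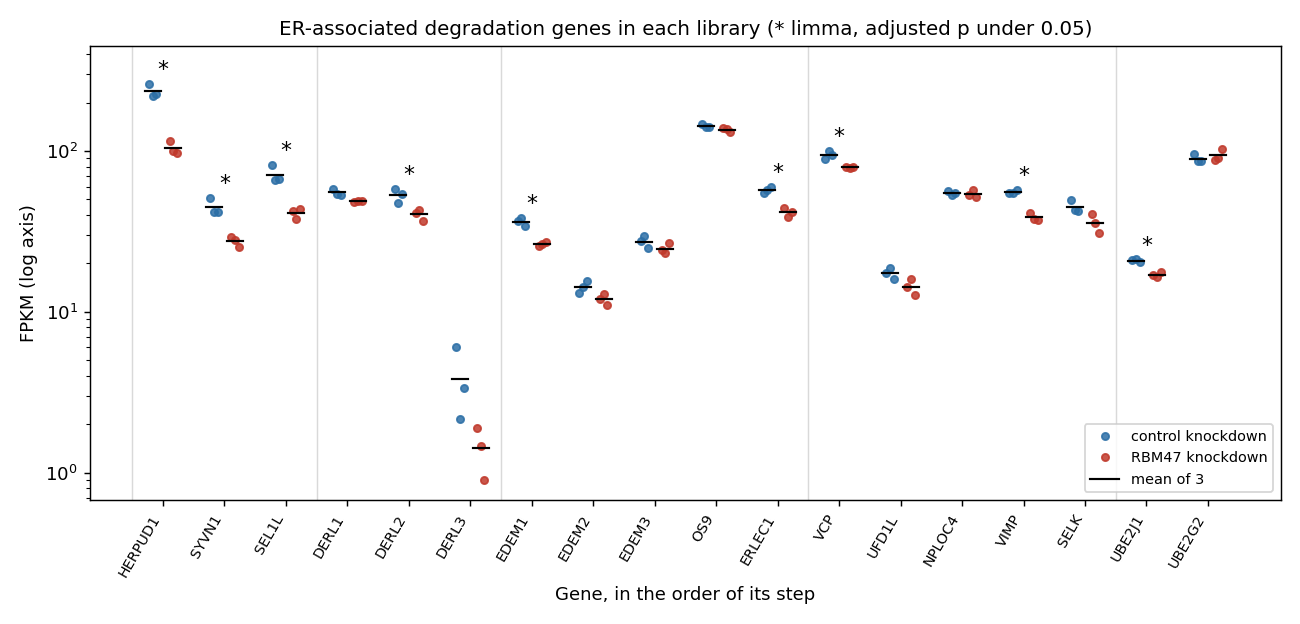
FPKM (log axis) of the 18 degradation genes (x axis) in each of 3 control libraries (blue) and 3 RBM47 knockdown libraries (red), with horizontal bars at the group means; a star marks genes that passed the threshold in limma. The red points lie wholly below the blue ones in 15 genes, and DERL3 is the low and scattered one.

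Of the 5 genes that trim or read the sugars of misfolded glycoproteins, 2 fell. EDEM1, a mannosidase-like protein that marks them for degradation (chromosome 3, 5229227 to 5261642), stood at 25.6, 26.4 and 27.3 FPKM in the knockdown and 36.6, 38.3 and 34.1 FPKM in the controls (log2 fold change -0.44 ± 0.058 SE, limma's adjusted p = 0.00465). ERLEC1, an ER lectin (chromosome 2, 53759810 to 54087297, a locus of 9 genes), stood at 44.2, 39.01 and 41.6 FPKM against 55.1, 57.6 and 59.4 FPKM (-0.45, SE 0.059, adjusted p = 0.0045). Both passed in each of the 6 fits without 1 library. Their paralogs or partners did not pass. EDEM2 and EDEM3 had log2 fold changes of -0.24 and -0.14 (adjusted p = 0.112 and 0.296). OS9, the other ER lectin, was the most abundant of the 5, at 136 ± 3.47 against 143 ± 3.36 FPKM (SD, n = 3 each), and its 95% interval ran from -0.17 to 0.017.

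Around the p97 ATPase, which extracts substrates from the membrane, 2 of 5 genes fell. VIMP, the selenoprotein that anchors p97 at the ER (chromosome 15, 101811022 to 101817705, alone in its locus), stood at 41.3, 37.8 and 37.1 FPKM in the knockdown and 54.5, 54.9 and 56.9 FPKM in the controls. It fell to 69.9% of the control mean (log2 fold change -0.51 ± 0.054 SE, limma's adjusted p = 0.00272) and passed without any one library. VCP, p97 itself (chromosome 9, 35056061 to 35073246, alone in its locus), stood at 79.98, 78.9 and 79.1 FPKM against 89.5, 99.9 and 94.9 FPKM (-0.25, SE 0.05, adjusted p = 0.0193), with almost no spread among the knockdown libraries. It no longer passed in 4 of the 6 fits (adjusted p = 0.0501 without RBM47 knockdown replicate 1, 0.0703 without RBM47 knockdown replicate 2, 0.0618 without control replicate 2 or 0.0675 without control replicate 3). SELK, another selenoprotein of the ER membrane, stood at 40.4, 35.6 and 30.7 FPKM against 49.8, 43.2 and 42.4 FPKM (-0.34, adjusted p = 0.0777). It passed in 1 fit, with adjusted p = 0.0431 without RBM47 knockdown replicate 1. Of the pair of cofactors that bind p97 together, UFD1L had -0.27 (adjusted p = 0.0996) and NPLOC4 -0.02 (adjusted p = 0.843). The interval of NPLOC4, -0.14 to 0.10, did not reach the fall of VIMP. That difference between genes was not tested.

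The 2 ubiquitin-conjugating enzymes went separate ways in sign. UBE2J1, which is anchored in the ER membrane, stood at 17.02, 16.4 and 17.6 FPKM in the knockdown and 20.9, 21.2 and 20.3 FPKM in the controls (log2 fold change -0.28 ± 0.054 SE, limma's adjusted p = 0.0189). The spread was small in both groups, but the call was lost in 5 of the 6 fits without 1 library (adjusted p = 0.0501 without RBM47 knockdown replicate 1, 0.0724 without RBM47 knockdown replicate 2, 0.0585 without control replicate 1, 0.0665 without control replicate 2 or 0.0548 without control replicate 3). UBE2G2, a soluble enzyme that works with other ER ligases, had the 1 positive sign among the 18 genes. It stood at 88.1, 89.8 and 104 FPKM against 95.2, 86.5 and 86.1 FPKM, with overlapping groups (0.069, adjusted p = 0.575).

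On the import side, the genes that passed the threshold belonged to the channel and the proteins around it. SEC11C of signal peptidase had a larger log2 fold change, -0.52, but did not pass (limma, adjusted p = 0.101). Differences between the steps were not tested. SEC61A1, the pore subunit (chromosome 3, 127770484 to 128127485, a locus of 7 genes), stood at 76.9, 74.4 and 69.8 FPKM in the knockdown and 95.6, 92.1 and 94.2 FPKM in the controls. It fell by 0.35 on the log2 scale (SE 0.049, limma, adjusted p = 0.00585) and passed without any one library. SEC61B, a small subunit, stood at 118, 109.8 and 96.4 FPKM against 129, 144 and 151 FPKM (-0.39, SE 0.086, adjusted p = 0.028). It no longer passed in 4 of the 6 fits (adjusted p = 0.0769 without RBM47 knockdown replicate 2, 0.0534 without RBM47 knockdown replicate 3, 0.0856 without control replicate 2 or 0.093 without control replicate 3). SEC61G, the third subunit, was at 163 ± 9.37 against 170.5 ± 4.91 FPKM (SD, n = 3 each), with overlapping groups and a 95% interval of -0.18 to 0.059. In control cells the order of levels was SEC61G, SEC61B and SEC61A1, each apart from the next beyond its spread.

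TRAM1, a membrane protein beside the channel that helps some chains to enter (chromosome 8, 71485677 to 71520622), had the largest fall of the called import genes. It stood at 121, 114 and 117 FPKM in the knockdown and at 170.2, 159.7 and 156 FPKM in the controls (log2 fold change -0.46 ± 0.048 SE, limma's adjusted p = 0.0024), and passed without any one library. SEC62 and SEC63, which serve chains that enter after translation, had -0.13 and -0.079 (adjusted p = 0.114 and 0.601).

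The TRAP complex, whose 4 subunits sit under the ribosome at the channel, fell in 2 of its genes. SSR4 (chromosome X, 153051221 to 153063960) stood at 128, 120.1 and 109 FPKM in the knockdown and 148, 153 and 159 FPKM in the controls (log2 fold change -0.36 ± 0.063 SE, limma's adjusted p = 0.0124, and 0.0522 without control replicate 3). SSR3 stood at 83.2, 76.4 and 71.7 FPKM against 91.5, 95.6 and 94.2 FPKM (-0.28, SE 0.059, adjusted p = 0.024), and lost its call in 4 of the 6 fits (adjusted p = 0.0801 without RBM47 knockdown replicate 2, 0.0553 without control replicate 1, 0.0797 without control replicate 2 or 0.0771 without control replicate 3). SSR1 and SSR2 did not pass, at -0.18 and -0.10 (adjusted p = 0.0684 and 0.285). SSR2 was the most abundant of all 41 genes, at 275 ± 18.1 FPKM in the knockdown and 294 ± 7.09 FPKM in the controls, 3.12 to 3.57 times the SSR1 level in the 6 libraries.

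**Figure D3:**
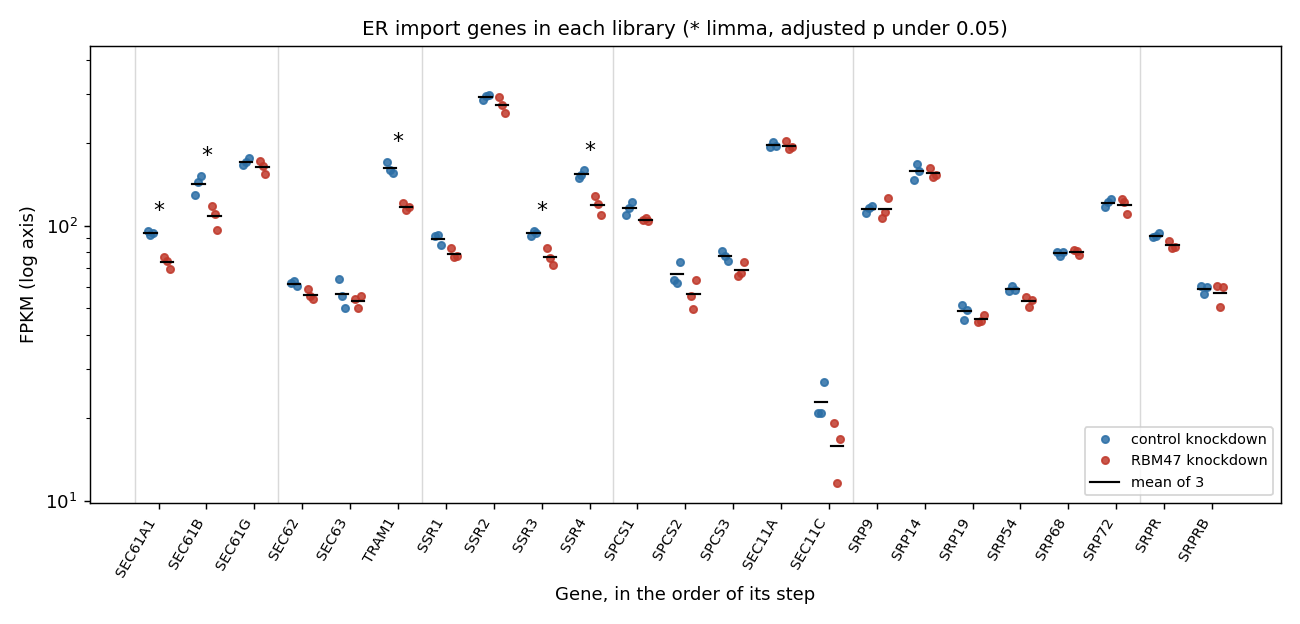
FPKM (log axis) of the 23 import genes (x axis) in each of 3 control libraries (blue) and 3 RBM47 knockdown libraries (red), with horizontal bars at the group means; a star marks genes that passed the threshold in limma. The 5 starred genes belong to the channel, TRAM1 and the TRAP complex, while the points of SEC11A, SRP9 and SRP14 overlap.

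None of the 13 genes of signal peptidase, the signal recognition particle and its receptor passed limma. At an unadjusted p under 0.05 there were 6 of them, all with lower values in the knockdown, beside the 14.3% of all tested genes that were lower at that p, and no other tool was run. In signal peptidase the catalytic subunits SEC11A and SEC11C differed in value. SEC11A stood at 204, 189 and 193 FPKM against 193, 202 and 195 FPKM, with a 95% interval of -0.11 to 0.093 for its log2 fold change. SEC11C stood at 19.1, 11.6 and 16.8 FPKM against 20.8, 20.8 and 26.9 FPKM, with an interval of -0.93 to -0.11 (adjusted p = 0.101). The knockdown values of SEC11C were the lower ones without overlap, and RBM47 knockdown replicate 2 was the lowest. SEC11A stood at 7.25 to 9.69 times the SEC11C level in the controls and at 10.7 to 16.4 times in the knockdown. The accessory subunits SPCS1, SPCS2 and SPCS3 had log2 fold changes of -0.14, -0.24 and -0.16.

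The 6 proteins of the signal recognition particle, which bind signal sequences and pause translation, lay closest to no difference, with log2 fold changes from -0.14 to 0.018 and a median of -0.026. SRP54, which holds the signal sequence, had the lowest value (95% interval -0.25 to -0.031, adjusted p = 0.0996). SRP68, at 81.8, 80.8 and 77.97 FPKM in the knockdown and 80.1, 77.4 and 80.02 FPKM in the controls, had the 1 positive sign among the import genes. SRP9 and SRP14, which form the part that slows translation, had intervals of -0.16 to 0.14 and -0.16 to 0.12, and those of SRP72 and SRP19 were -0.16 to 0.10 and -0.23 to 0.04. The receptor subunits SRPR and SRPRB had -0.12 and -0.053 (adjusted p = 0.122 and 0.677). The signs of SRP9, SRP14 and SEC11A turned positive when libraries were scaled to the same total or by quantiles.

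FPKM of SPCS2 and SRP9 are uncertain, because the table lists processed copies of them at like levels. SPCS2P4 stood at 55.04, 59.9 and 59.98 FPKM in the knockdown and at 79.4, 76.4 and 78.1 FPKM in the controls (-0.41, limma, adjusted p = 0.00348). SPCS2 itself stood at 55.4, 49.7 and 63.6 FPKM against 63.6, 61.7 and 74.02 FPKM, with overlapping groups (-0.24, adjusted p = 0.166). SRP9P1 was at 73.9 ± 1.77 against 77.2 ± 7.68 FPKM (SD, n = 3 each) and SRP9 at 115 ± 9.88 against 115 ± 3.25 FPKM. How the authors assigned reads that match both copies is not stated in the labels. Of the 41 genes 27 share their locus entry with other genes, and their FPKM may hold reads of those.

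**Figure D4:**
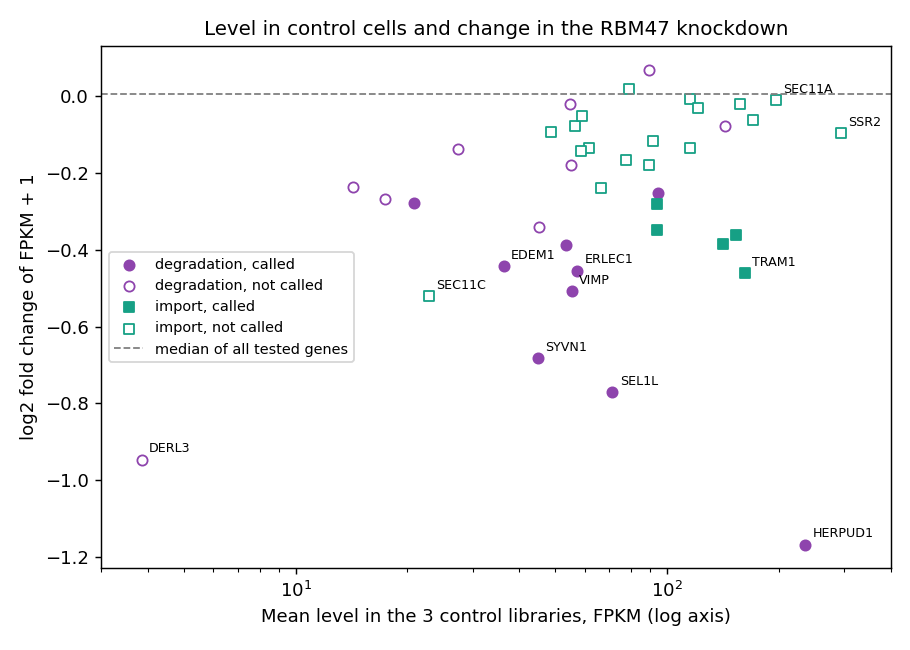
Mean level of each of the 41 genes in the 3 control libraries (x axis, FPKM, log axis) against its log2 fold change of FPKM + 1 (y axis), for degradation genes (circles) and import genes (squares). Filled symbols passed the threshold in limma and the dashed line is the median of all tested genes. HERPUD1 combines a high level with the largest change among the filled symbols, while SSR2 and SEC11A are abundant and lie close to the line.

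A shared promoter feature was looked for in the 35 genes with a RefSeq window (42 windows, GRCh38.p14). The core of the unfolded protein response element, TGACGTGG, to which XBP1 and ATF6 are known to bind, was found on either strand in 6 of them. They were VCP, UBE2J1, SSR3 and SSR4, of 13 genes that fell, and SEC62 and SRP19, of 22 that did not pass. Among windows of tested genes 0.853% held it, and among all 35116 windows 0.729%. The full ER stress response element (ERSE) ends in letters that the reverse complement of TGACGTGG holds, so the motifs can overlap. An exact match to ERSE was in none of the 42 windows and in 0.114% of those of tested genes. The near match in the HERPUD1 promoter was not counted. A match is a description of the letters, and binding was not measured. The matches are shown with 30 bases each, with the core in capitals, read along the gene's strand.
VCP, chr9:35072801-35072830, minus strand: tagcgttgcggccaatTGACGTGGcgttac
UBE2J1, chr6:89352940-89352969, minus strand: cgccacgaagctactgCCACGTCAgggcaa
SSR3, chr3:156554153-156554182, minus strand: ggagttctgataacagCCACGTCAgcaagg
SSR4, chrX:153794523-153794552, plus strand: ctggctcagggaggggCCACGTCAgtgctg
SEC62, chr3:169966774-169966803, plus strand: ccgccccctcctcgctCCACGTCAgaggga
SRP19, chr5:112861159-112861188, plus strand: aagggaagtcttcatgCCACGTCAgagact
The core began 189, 231, 41, 129, 17 and 112 bases before the start in this order, as written in VCP and on the reverse strand in the other 5. The other 9 genes that fell and had a window, HERPUD1, SYVN1, SEL1L, DERL2, EDEM1, ERLEC1, VIMP, SEC61A1 and SEC61B, did not hold it there. Among the genes with the core, VCP, UBE2J1, SSR3 and SSR4 passed in 2, 1, 2 and 5 of the 6 fits without 1 library. Of the 9 without it, DERL2 and SEC61B passed in 1 and 2, and the others in all 6. A link between motif and change was not tested.

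Other genes of the 2 pathways, outside the 41, also fell in part. Of 40 further degradation genes (other ligases and their partners, glycan trimming, cytosolic processing) 5 were lower and none higher in limma. Over all tested genes 6.34% were lower and 5.1% higher. With a mean of at least 5 FPKM required, 981 of 10458 genes were called lower, a larger share, and 5 of these further degradation genes. At an unadjusted p under 0.05, 12 of the 40 were lower and none higher, against 14.3% and 14.1% of all tested genes. Their median log2 fold change was -0.093. DNAJC10, an ER reductase that opens disulfide bonds of substrates, stood at 44.97, 44.5 and 48.3 FPKM in the knockdown and 64.5, 61.8 and 61.4 FPKM in the controls (-0.44, limma, adjusted p = 0.00302). ERLIN2, a membrane adaptor of ER ligases, had -0.36 (adjusted p = 0.00831), and both passed without any one library. UBE2G1 and RNF185 had -0.31 and -0.30, and their calls were lost in 4 and 6 of the 6 fits without 1 library (adjusted p up to 0.0794 and 0.108).

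Of 42 further import genes 9 were lower and 3 higher in limma, against 6.34% and 5.1% of all tested genes. Their median log2 fold change was -0.12, against -0.093 for the further degradation genes, and 21.4% against 12.5% were called lower. The larger fall of degradation among the 41 genes was thus not seen in these further genes. The difference was not tested. At an unadjusted p under 0.05, 17 were lower and 4 higher, against 14.3% and 14.1% of all tested genes. The 9 lower ones included 5 of 11 genes of the oligosaccharyltransferase, which adds sugars to entering chains. Its subunit MAGT1 stood at 41.05, 39.2 and 39.2 FPKM against 57.6, 50.6 and 55.3 FPKM (-0.44, limma, adjusted p = 0.00473), and its catalytic subunit STT3B had -0.40 (adjusted p = 0.0187, lost in 4 of the 6 fits without 1 library, up to 0.063). CCDC47, a translocon-associated protein, had -0.39 (adjusted p = 0.00346). SEC61A2 is the low-level paralog of the channel subunit SEC61A1. The table gives its locus to 6 genes, and its FPKM may hold reads of the others. SEC61A2 rose where SEC61A1 fell. It stood at 4.24, 4.70 and 4.20 FPKM in the knockdown and 2.82, 2.46 and 2.84 FPKM in the controls (0.54, SE 0.10, adjusted p = 0.0138, and 0.0587 without RBM47 knockdown replicate 2 or 0.05 without control replicate 2). At control means of 2.71 ± 0.213 FPKM for SEC61A2 and 93.97 ± 1.72 FPKM for SEC61A1 (SD, n = 3 each), the rise was small beside the fall in absolute level. EMC1 and EMC10, subunits of the ER membrane complex chosen after their values were seen, were the other rises, at 0.20 and 0.27 (limma, adjusted p = 0.0438 and 0.027), and each lost its call in 5 of the 6 fits without 1 library (up to 0.143 and 0.0946). The complex as a whole did not rise: 8 of its 10 genes had a negative sign, with a median of -0.097. EMC8, also named after its values were seen, was called lower (-0.27, limma, adjusted p = 0.0248). It passed in 2 of the 6 fits without 1 library.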

How the data were processed

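Libraries were made from polyadenylated RNA with a stranded kit and read from both ends, per the labels' protocols. The authors deposited 1 table of FPKM for 57150 genes in 6 libraries, 3 per group. TopHat 1.4.1, Cuffdiff 2.2.0 and hg19 are listed in the submitters' processing notes, and settings, library scaling and use of strand were not given in the sources used here. No count test was run, because FPKM hold no counts, and the fragment depth is unknown. Relative depth was the most frequent ratio of values under 0.3 FPKM between libraries, within 0.02 (log2), in genes alone in their locus. Limma's p-values set the difference between groups against the spread of these libraries within groups, moderated by a trend over all tested genes.

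A mean of 1 FPKM over all libraries was required, which left 14419 genes. They were fitted with limma 3.58.1 in R 4.3.3 on log2(FPKM + 1) with a trended prior, and the contrast was knockdown minus control. Benjamini-Hochberg adjusted p under 0.05 over all of them was the threshold. Fold changes on this scale understate those of low genes. Intervals are limma's 95% intervals. The fit was tested on simulated data in the same design. It called 74% of the genes given a change of 0.5 (log2) and 99% of those given a change of 1. There were 100 genes of each size, none from the lowest levels, and the noise was normal with limma's own variances. In the data 1650 genes were called, so these rates need not hold there, least of all for low genes such as DERL3. Smaller changes were not simulated, and a gene that did not pass may still have changed.

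The members, the other pathway lists and the motifs were chosen with earlier results of these data known. Every member is accounted for, and of the other pathway genes up to 4 called ones per list with the largest change are named, except where stated. Alternatives were other pseudocounts, filters, scalings, limma with no trend, array weights, a block for the replicate number, and the omission of each library. Loci are the table's own (hg19), with starts counted from 1. Promoter windows came from RefSeq (GRCh38.p14) by gene name, for 35 of 41 members. DERL1, DERL3, UFD1L, TRAM1, SPCS1 and SRPR had no entry. Calculations and figures used Python 3.11.15, scipy 1.17.1 and matplotlib 3.10.9. Splicing and isoforms were not analysed here.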

Additional observations from a re-analysis of the deposited data

How the results depend on the processing

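The lists kept their direction under every alternative tried. The median log2 fold change ranged from -0.35 to -0.28 (degradation) and from -0.15 to -0.11 (import) over the fits without 1 library, and that of the import genes was -0.076 with quantile normalization. The pseudocounts moved no call of a named gene. Of 14419 genes 1650 passed, but 916 of 26591 with no filter on low values and 837 with the replicate block, and between 679 and 1288 without 1 library. Import genes called lower numbered 3 with no filter, without trend and with the replicate block, and 2 to 5 without 1 library, whereas degradation genes called lower numbered 6 to 8 there. With the block DERL2, UBE2J1, VCP, SEC61B and SSR3 were lost and SELK was gained. Deviations of same-numbered libraries from their group means correlated at 0.019, -0.096 and 0.077, and those of differently numbered ones at -0.105 to 0.09. No pairing was assumed. Whether the replicate numbers share a source is not given in the labels, and 3 libraries per group cannot settle it. With no filter DERL2, SEC61B and SSR3 were lost, and without trend VCP as well. DERL1 passed at a mean of at least 5 FPKM and with array weights (adjusted p = 0.0469 and 0.0465). Of the other degradation genes 3 were called lower with no filter, 2 with the replicate block and 2 to 3 without 1 library. Of the other import genes 1 was called higher with no filter or without trend, 0 with the replicate block and 0 to 3 without 1 library, where 5 to 8 were called lower. The causes were not tested.

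Signs turned in genes that never passed. With the same total the log2 fold change was 0.0049 for NPLOC4, 0.016 for SEC11A, 0.018 for SRP9 and 0.0038 for SRP14. With the same upper quartile it was 0.0029 for SEC11A and 0.0059 for SRP9. With quantile normalization it was 0.012 for NPLOC4, 0.0032 for SEC61G, 0.055 for SEC11A, 0.036 for SRP9, 0.032 for SRP14 and 0.027 for SRP72. With array weights it was 0.0067 for NPLOC4. Without 1 library the values ran from -0.059 to 0.0083 for NPLOC4, from -0.0034 to 0.12 for UBE2G2, from -0.16 to 0.013 for SEC63 and from -0.0402 to 0.013 for SEC11A. They ran from -0.073 to 0.047 for SRP9, from -0.073 to 0.027 for SRP14, from -0.066 to 0.021 for SRP72 and from -0.096 to 0.026 for SRPRB. The fragment depth is unknown, which limits what can be said of DERL3, the one gene of the 41 near the lowest level tested.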
